A study of Mus musculus with 26 samples.

Results

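The receptor genes described here were measured in mouse liver across doses of benoxacor, a safener that is mixed into herbicide products to protect the crop. They are xenobiotic and metabolic receptors, namely Nr1i3, Nr1i2, Ahr, Ppara, Rxra, Nr1h4, Nr1h3, Hnf4a, Nr5a2 and Esr1. The 10 members were chosen by name, with no measured value in the rule, from the 54532 genes of the count table. Earlier results of these data were known when the members were chosen. All 10 were among the 14415 genes that passed the filter on low counts. The study sequenced liver RNA of 26 C57BL/6 mice, 1 library per mouse. Benoxacor was given by mouth with a gavage tube on 3 consecutive days, and the liver was taken 24 hours after the last dose. The control group at 0 mg/kg held 5 mice, and the groups at 0.5, 5 and 50 mg/kg held 5, 8 and 8 mice. All groups shared the strain, housing from 4 to 8 weeks of age with mixed bedding, the gavage schedule and the tissue, and no group carried a transgene or a deletion in the labels. The content of the control gavage, the cage and the sex are not stated in the labels.

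Nuclear receptors are transcription factors that are switched by small molecules. CAR (Nr1i3) and PXR (Nr1i2) answer foreign chemicals and bile acids in hepatocytes and drive P450 enzymes, conjugating enzymes and transporters. The aryl hydrocarbon receptor Ahr belongs to another protein family, the bHLH-PAS factors, and pairs with Arnt after it binds planar aromatic compounds. Most of the nuclear receptors named here bind DNA as a pair with RXR-alpha (Rxra): PPAR-alpha (Ppara) for fatty acid oxidation, FXR (Nr1h4) for bile acids and LXR-alpha (Nr1h3) for oxysterols. HNF4-alpha (Hnf4a) maintains hepatocyte identity and binds as a pair with itself, LRH-1 (Nr5a2) binds as a single molecule and acts on bile acid and cholesterol genes, and Esr1 encodes estrogen receptor alpha. The activity of these proteins is set largely by ligand, location in the cell and cofactors, which a transcript count does not measure.

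The mouse numbers in the labels fell in 2 runs, one from 601 with 15 mice and one from 619 with 11 mice. The first held 4 control mice and 3, 4 and 4 treated ones by increasing dose, and the second 1 control mouse and 2, 4 and 4. No label explains the gap in the numbers. Because higher doses have higher numbers inside a run, dose and number order cannot be told apart there. Libraries held 5433074 to 9088626 counts. All 12 hepatocyte markers had reads in every library. Saa1, an acute phase gene, was high in a pair of mice given 0.5 mg/kg, with 3225 CPM in replicate 2 and 2305 CPM in replicate 1, against 654 CPM or less elsewhere. In 5 mg/kg replicate 8 the 9 markers of steroid-producing cells summed to 3819 CPM, against 18.9 CPM or less in the other 25 mice, each of which had 4 or more of the 9 at 0. That library also had the highest sums of pancreas markers (124.1 CPM, next 32.55), lymphocyte markers (69.45, next 29.94) and stellate cell markers (532.3, next 388), and the highest TMM factor (1.179). Its sums of cholangiocyte, endothelial and Kupffer cell markers were not the highest. These 3 mice are named below where they hold the extreme of a receptor. Values in CPM are counts scaled to a common library size by TMM, a method that assumes most genes do not differ. In bulk liver RNA, fewer cells of a type and less RNA per cell cannot be told apart.

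By level per length of exon, which allows genes to be set against each other, the members spanned a wide range. Hnf4a had the highest mean at 115 CPM per kb (SD 15.95, n = 26), then Nr1i3 at 104.7 (SD 37.4), Nr1h4 at 67.1 (SD 12.4) and Rxra at 65.2 (SD 11.7). Nr1h3 (32.4, SD 4.16), Nr1i2 (31.9, SD 5.85) and Ppara (25.7, SD 5.44) lay in the middle of the order, and Nr5a2 (10.1, SD 1.495), Ahr (7.32, SD 2.47) and Esr1 (2.06, SD 0.81) at its lower end. The order was not sharp among neighbours. Hnf4a exceeded Nr1i3 in 15 of 26 mice, Nr1h4 exceeded Rxra in 13, and Nr1h3 exceeded Nr1i2 in 14. Only 2 steps separated neighbours without any overlap, from Rxra down to Nr1h3 and from Ppara down to Nr5a2. Ahr exceeded Esr1 in all 26 mice although their ranges overlapped. Levels use the summed exon length of GENCODE M21, which counts all isoforms.

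**Figure D1:**
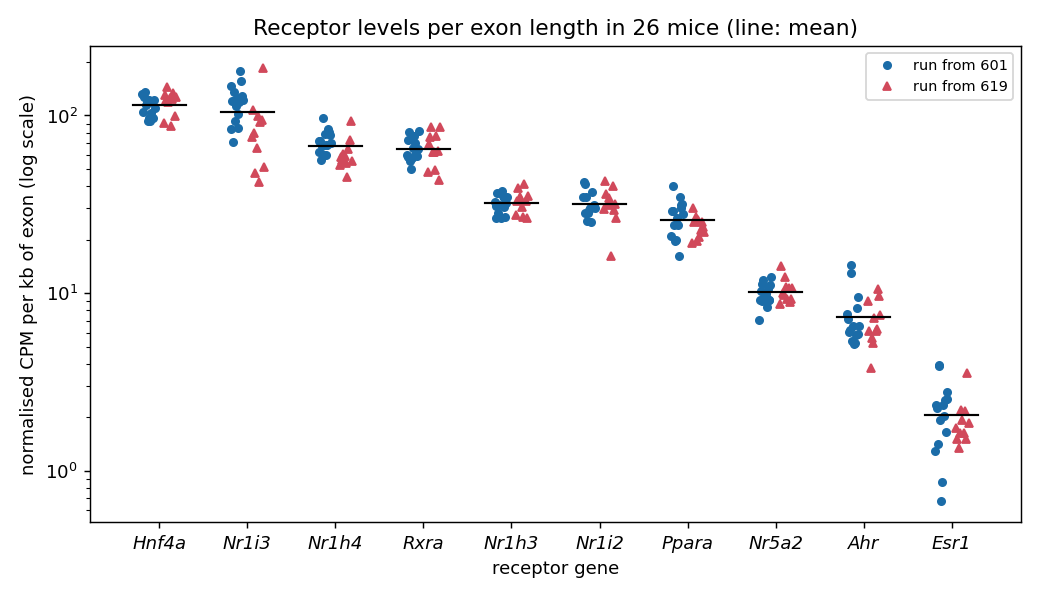
Level of each receptor in each of the 26 mice as normalised CPM per kb of exon, on a log axis, with circles for the run from 601, triangles for the run from 619 and a line at the mean of all mice. Hnf4a and Nr1i3 have the highest means, at 115 and 104.7, and Esr1 the lowest, at 2.06.

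The members also differed in how steady they were between mice. The biological coefficient of variation, edgeR's estimate of the spread between mice of 1 dose and run beyond counting noise, was 14.9% for Nr5a2, 15.5% for Nr1h3, 16.8% for Nr1h4 and 17.6% for Hnf4a, against a median of 22% over all genes tested. Nr1i2 (19.4%), Rxra (20.5%) and Ppara (20.9%) were close to that median. Ahr (27.7%), Nr1i3 (29.3%) and Esr1 (35%) varied more. Of the 2538 genes with a mean level within 0.5 on the log2 scale of that of Esr1, 96.1% had a smaller coefficient, and for Ahr the share was 90% of 2177 genes. From the lowest to the highest of the 26 mice, Esr1 spanned 5.82-fold, Nr1i3 4.42-fold and Ahr 3.83-fold, while Nr1h3 spanned 1.56-fold and Hnf4a 1.66-fold.

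The Nr1i3 row of the table needs a caution of its own. Nr1i3 lies on the plus strand of chromosome 1 from 171213970 to 171220701 (mm10), and 3304 of its 4414 exonic bases, 74.9%, are also exonic in Tomm40l, a gene on the minus strand (171216011 to 171222514) whose product resembles a channel of the mitochondrial outer membrane. The counts of the 2 genes were nearly equal in each mouse, with a ratio of Nr1i3 to Tomm40l between 0.996 and 1.15 and a median of 1.06. Over the 26 mice their log2 CPM had a Pearson r of 0.995, with 0.986 and 0.998 inside the runs from 601 and 619. The strand setting of the counting is not given in the sources used here, so reads of the 2 genes cannot be told apart. Each value of Nr1i3 below is one of Nr1i3 together with whatever share Tomm40l has in it. The same holds for its level, rank and spread given above. Among the other members, exons of Ahr shared 127 bases (2.06%) with the lincRNA Gm48236 on the opposite strand and those of Nr1h3 shared 34 bases (1.35%) with Gm13783 on the same strand. The antisense gene Hnf4aos crosses Hnf4a without any shared exonic base.

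The comparisons with 0 mg/kg asked whether benoxacor shifts the transcript levels of the receptors. None of the 10 members passed an adjusted p of 0.05 at any dose in edgeR's quasi-likelihood test with terms for dose and run. Hardly any gene did. The test called 1 of 14415 genes at 50 mg/kg (0.00694%, lower), 0 for the 5 mg/kg group (0%), 0 for the 0.5 mg/kg group (0%) and 1 for any difference among the 4 doses (0.00694%). DESeq2 called 3, 4, 7 and 11 genes in the same 4 tests, and again 0 members. Unadjusted p-values under 0.05 were found for 1 member in the 50 mg/kg comparison (Nr1h4, higher), for 1 in the 0.5 mg/kg comparison (Nr5a2, higher) and for 0 in the other comparisons. Of all genes, 5.11% had such a p in the highest dose group (2.54% higher and 2.57% lower), 6.18% in the middle one (2.73% and 3.45%), 6.99% in the lowest one (3.79% and 3.2%) and 5.7% for any difference. The members had a median log2 fold change of 0.12 with 8 positive and 2 negative in the 50 mg/kg group. It was -0.083 with 4 positive and 6 negative in the 5 mg/kg group, and 0.14 with 6 positive and 4 negative in the 0.5 mg/kg group. Over all genes the medians were 0.0054, 0.012 and 0.0049 in the same order, and 51.1%, 51.9% and 50.8% of genes were positive. The 3 comparisons share the same 5 control mice.

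The intervals show what sizes these data leave possible. All 10 of the 95% confidence intervals for the 5 mg/kg group lay within a 2-fold change in either direction, as did 9 for 0.5 mg/kg and 8 for 50 mg/kg. Esr1 at 0.5 mg/kg (upper bound 1.14 on the log2 scale) and Nr1i3 and Esr1 at 50 mg/kg (upper bounds 1.01 and 1.02) were the exceptions.

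**Figure D2:**
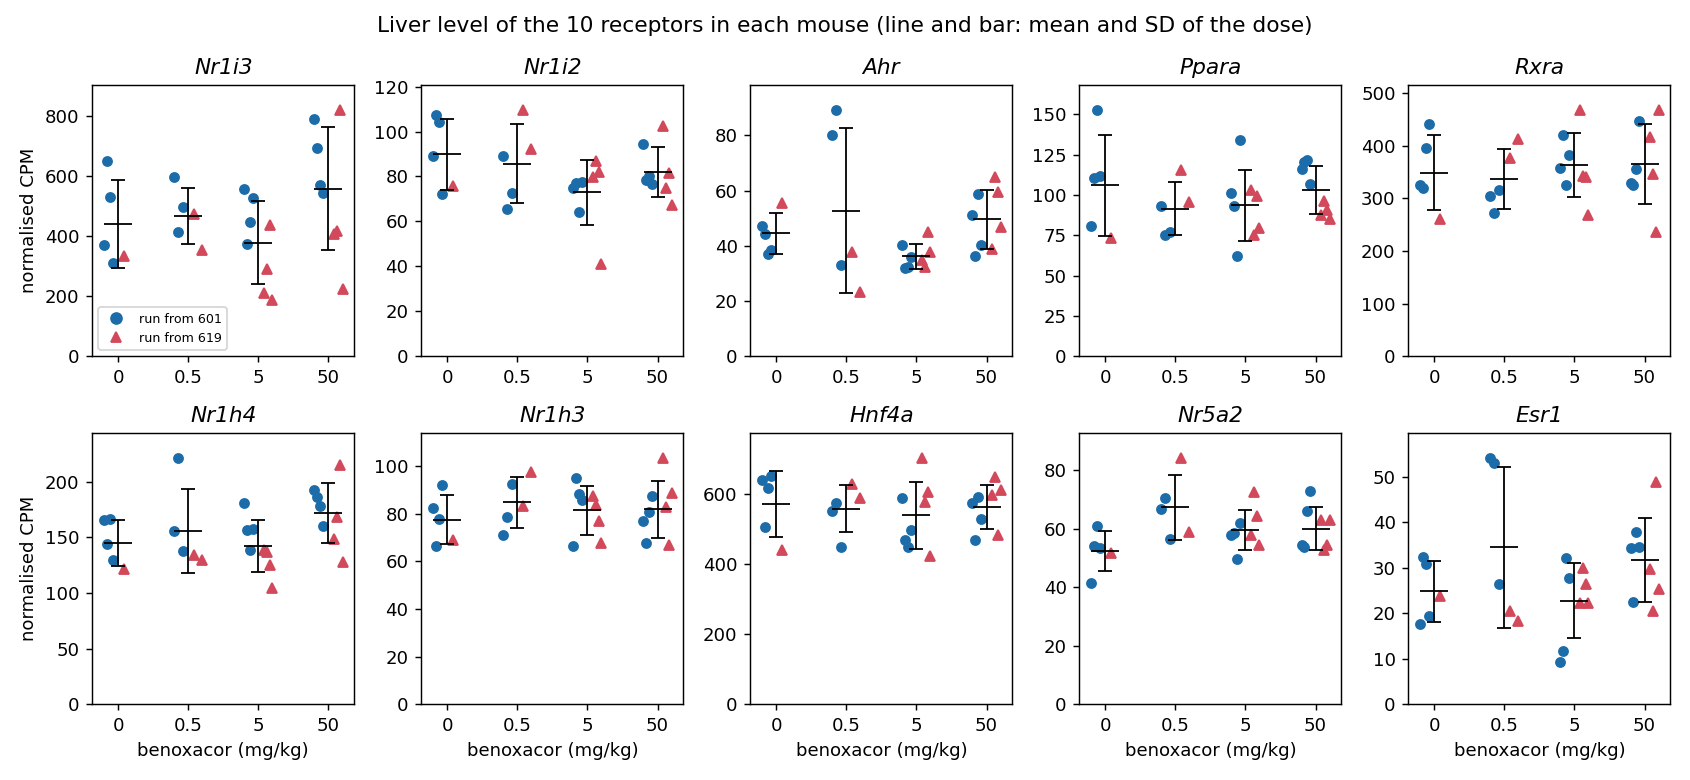
Normalised CPM of each receptor in each mouse against dose in mg/kg, with circles for the run from 601, triangles for the run from 619, and a line and bar for the mean and SD of the 5, 5, 8 and 8 mice at each dose. In every panel the mice of each treated dose overlap the 5 control mice, and the 2 highest Ahr values, 80.1 and 89.3, are both at 0.5 mg/kg.

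**Figure D3:**
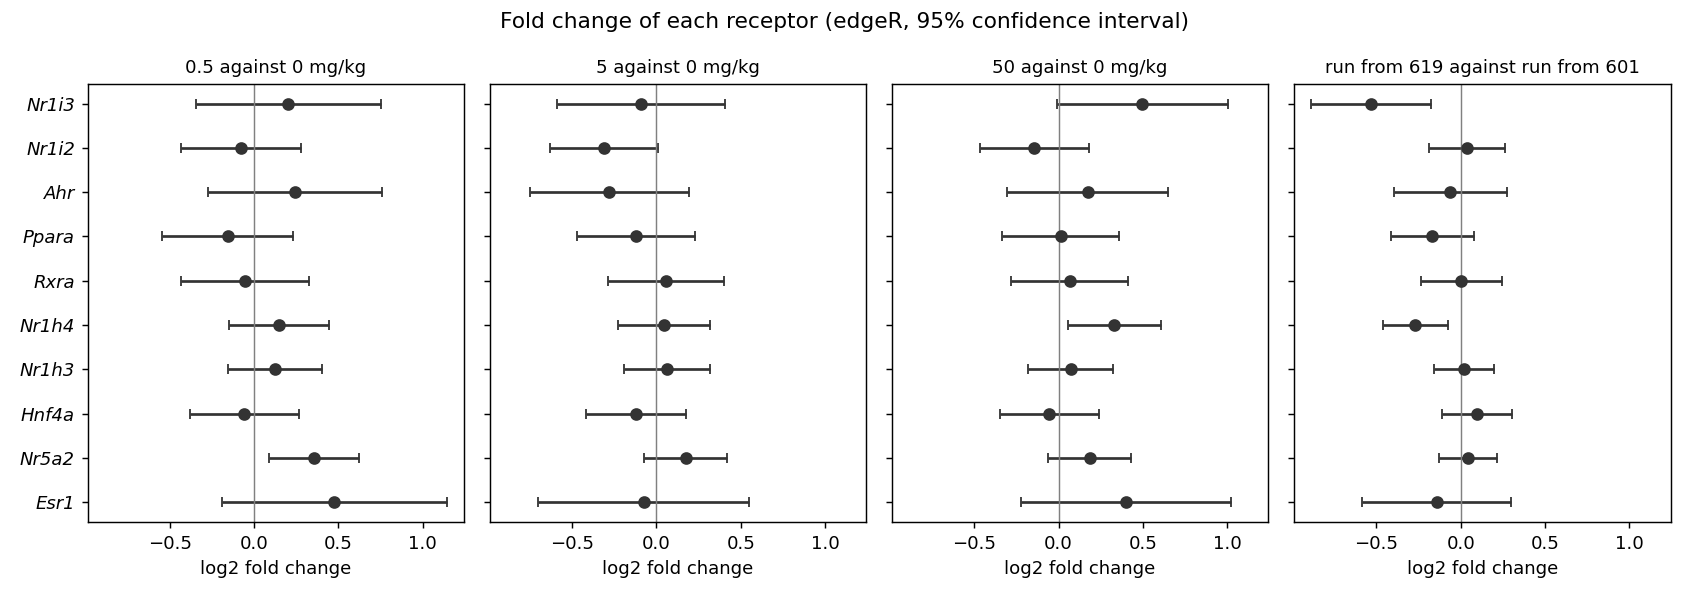
Log2 fold change of each receptor with its 95% confidence interval in edgeR, for each dose against 0 mg/kg and for the run from 619 against the run from 601. Intervals that leave out 0 are those of Nr5a2 at 0.5 mg/kg, Nr1h4 at 50 mg/kg, and Nr1i3 and Nr1h4 between the runs, and none of these passed after adjustment over all genes.

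Among the sensors of foreign chemicals, Nr1i3 (CAR) stood at 371, 649.6, 531, 312 and 333.3 CPM in the 5 control mice. At 0.5 mg/kg it was 598, 413, 496, 473 and 352 CPM, all within the control range. In the 5 mg/kg group its lowest, median and highest values were 186 (replicate 8), 405 and 557 CPM, and in the 50 mg/kg group 225, 556 and 821 CPM. The groups overlapped at every dose, with 3 of 8 mice at 50 mg/kg above the highest control and 1 below the lowest, and 3 of 8 mice at 5 mg/kg below the lowest. The log2 fold change at 50 mg/kg was 0.50 (SE 0.25, interval -0.011 to 1.01, adjusted p = 0.975). Inside the run from 601 it was 0.47 and inside the run from 619, where the control is 1 mouse, 0.49. Without 50 mg/kg replicate 7 it was 0.35. Tomm40l, the overlapping gene, had 0.47 (adjusted p = 0.984). For the 5 mg/kg group the value of Nr1i3 was -0.09, and 0.0012 without its replicates 6 and 8. Replicate 6 is not among the 3 mice named above, and no measure that sets it apart is given here. Replicate 5, which was kept, had a lower Nr1i3 (209 CPM) than replicate 6 (290 CPM). Nr1i3 had the smallest p of the members in the test of any dose difference, where edgeR gave an adjusted p of 0.86.

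Nr1i2 (PXR), on the minus strand of chromosome 16 from 38248323 to 38294824, was at 89.3, 107, 104, 72.2 and 76.0 CPM in the control mice. The 0.5 mg/kg mice had 88.9, 65.3, 72.6, 109.8 and 92.0 CPM. Lowest, median and highest values were 41.2, 77.3 and 87.1 CPM in the 5 mg/kg group and 67.5, 79.2 and 102 CPM in the 50 mg/kg group. No mouse of these groups exceeded the highest control, and the groups overlapped. The lowest value of all 26 mice again came from 5 mg/kg replicate 8, the mouse with the markers of steroid-producing cells, and their part in it was not tested. The log2 fold change of the 5 mg/kg group was -0.31 (SE 0.16, adjusted p = 0.78), against -0.14 for 50 mg/kg and -0.078 for 0.5 mg/kg. It was -0.24 without replicate 8, -0.35 inside the run from 601 and -0.065 inside the run from 619, where the control is 1 mouse.

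Ahr, on the minus strand of chromosome 12 from 35497974 to 35535038, had the widest spread of any member at the lowest dose. Its values were 80.1, 89.3, 33.0, 37.9 and 23.3 CPM at 0.5 mg/kg, against 47.0, 44.3, 37.2, 38.4 and 55.4 CPM in the control mice. The 2 high values belong to replicates 1 and 2, the mice of high Saa1, and both exceeded all other 24 mice, whose highest value was 64.9 CPM. The log2 fold change at 0.5 mg/kg was 0.24 (SE 0.25, adjusted p = 0.918) with these 2 mice and -0.57 without them (adjusted p = 0.413). The 5 mg/kg mice had 31.9 to 44.8 CPM with a median of 35.3, and 5 of 8 were below the lowest control. The 50 mg/kg mice had 36.4 to 64.9 CPM with a median of 48.8. The log2 fold changes were -0.28 (SE 0.23, adjusted p = 0.81) and 0.17 (SE 0.23, adjusted p = 0.997), and neither passed the test.

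Of the receptors of lipid and bile acid metabolism, Rxra, the shared partner, was at 326, 320.3, 396, 441 and 261 CPM in the control mice. It is on the plus strand of chromosome 2 from 27676440 to 27762957. Its mean was 349 ± 70.3 CPM in the control group and 336 ± 56.8, 363 ± 60.8 and 365 ± 75.5 CPM by increasing dose (SD, n = 5, 5, 8 and 8). These means differed by far less than the SD, and the log2 fold changes were -0.055, 0.056 and 0.065 with an SE of 0.17 to 0.19. The lowest and the highest Rxra of all mice were both in the 50 mg/kg group, 236 CPM in replicate 7 and 468 CPM in replicate 8.

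Ppara, on the plus strand of chromosome 15 from 85734983 to 85802819, ranged from 73.3 to 153 CPM in the control mice, and all mice at 0.5 and 50 mg/kg lay within that range. Of the 8 mice given 5 mg/kg, 1 was below it, replicate 3 with 62.3 CPM. The log2 fold changes were -0.16, -0.12 and 0.012 by increasing dose, with SEs of 0.17 to 0.19. Nr1h3 (LXR-alpha), on the minus strand of chromosome 2 from 91184061 to 91202834, had means of 77.5 ± 10.4, 84.7 ± 10.6, 81.4 ± 10.1 and 81.8 ± 11.9 CPM. Its log2 fold changes of 0.12, 0.064 and 0.071 (SE 0.12 to 0.14) were also within their errors, and of the 10 members it spanned the narrowest range over the 26 mice.

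Nr1h4 (FXR), the bile acid receptor, had the smallest p of the members at 50 mg/kg. It lies on the minus strand of chromosome 10 from 89454234 to 89533585. Its values were 166, 144, 166, 129 and 121 CPM in the control mice, and 128, 173 and 215 CPM were the lowest, median and highest in the 50 mg/kg group. Of the 8 mice at 50 mg/kg, 5 exceeded the highest control and none was below the lowest. The log2 fold change was 0.33 (SE 0.13, interval 0.055 to 0.61, a 1.26-fold level), with an adjusted p of 0.883 in edgeR. Inside the run from 601 it was 0.24 and inside the run from 619, where the control is 1 mouse, 0.45, and between 0.27 and 0.37 when each mouse was left out in turn. The value was 0.047 for 5 mg/kg, where replicate 8, the mouse with the markers of steroid-producing cells, had the lowest Nr1h4 of all mice at 104 CPM. It was 0.15 for 0.5 mg/kg and went to -0.019 without the 2 mice of high Saa1, one of which, replicate 2, had the highest Nr1h4 of all mice at 222 CPM.

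Hnf4a, on the plus strand of chromosome 2 from 163506808 to 163572910, was at 639.8, 504, 615, 651 and 439 CPM in the control mice. The 50 mg/kg mice had 468 to 647 CPM with a median of 582, wholly within the control range. The log2 fold changes were -0.058, -0.12 and -0.055 by increasing dose (SE 0.14 to 0.16, adjusted p of 0.866 or more). The highest and the lowest of the 26 mice were both at 5 mg/kg in the run from 619, replicate 5 at 702 CPM and replicate 8 at 423 CPM. Nr5a2 (LRH-1), on the minus strand of chromosome 1 from 136842571 to 136960448, was at 41.6, 54.2, 60.9, 53.4 and 51.6 CPM in the control mice and at 66.7, 70.3, 56.3, 84.2 and 58.9 CPM at 0.5 mg/kg. There 3 of 5 mice exceeded the highest control. The log2 fold change of Nr5a2 at 0.5 mg/kg was 0.35 (SE 0.13, interval 0.085 to 0.62, adjusted p = 0.576), and 0.31 without the 2 mice of high Saa1. Leaving out each mouse in turn gave values from 0.27 to 0.42. The 5 and 50 mg/kg groups had 0.17 and 0.18 (SE 0.12 each), with 3 and 4 of 8 mice above the highest control. The test of any difference among the 4 doses gave Nr5a2 an adjusted p of 0.865, and treated doses were not compared with each other.

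Esr1, on the plus strand of chromosome 10 from 4611593 to 5005614, had the lowest counts of the members, from 80 to 393 per library. Its values were 17.6, 32.3, 30.9, 19.3 and 23.8 CPM in the control mice and 54.2, 53.0, 26.4, 20.6 and 18.4 CPM at 0.5 mg/kg. As with Ahr, the 2 highest values of all mice were those of the mice of high Saa1. The log2 fold change at 0.5 mg/kg was 0.48 (SE 0.32, adjusted p = 0.829) and turned to -0.21 without them. In the 5 mg/kg group, of median 24.4 CPM, replicates 1 and 2 stood at 9.30 and 11.8 CPM, below all others, and the highest mouse had 32.1 CPM. The 50 mg/kg mice had 20.6 to 48.8 CPM with a median of 32.0, with 4 of 8 above the highest control and a log2 fold change of 0.40 (SE 0.30, adjusted p = 0.987).

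Between the runs, Nr1i3 and Nr1h4 were the 2 members with the smallest p, both lower in the run from 619. Nr1i3 had a mean of 525 ± 129 CPM in the 15 mice from 601 and of 377 ± 176 CPM in the 11 mice from 619, where 4 mice were below the lowest of the other run and 1 above its highest. The log2 difference was -0.53 (SE 0.17, interval -0.89 to -0.18, adjusted p = 0.3). Leaving out each mouse in turn gave values from -0.66 (without 50 mg/kg replicate 7, the mouse of 821 CPM, adjusted p = 0.0535) to -0.47 (without 50 mg/kg replicate 8). Without 5 mg/kg replicates 6 and 8 the value was -0.45 (adjusted p = 0.546). Tomm40l had -0.52 (adjusted p = 0.332). Nr1h4 had 165 ± 24.3 against 141 ± 29.4 CPM and a log2 difference of -0.27 (SE 0.094, interval -0.46 to -0.077, adjusted p = 0.356), with 5 of 11 mice below the lowest of the run from 601. The lowest of these was again 5 mg/kg replicate 8, and the Nr1h4 difference was -0.25 without it and replicate 6 (adjusted p = 0.583).

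As a background, 13 of 14415 genes passed between the runs (0.0902%), 10 of them higher in the run from 619 (0.0694%) and 3 lower (0.0208%). An unadjusted p under 0.05 was found for 7.98% of genes (4.16% higher and 3.83% lower) and for 2 of the 10 members, both lower. Within single doses the difference in Nr1i3 at 5 mg/kg was 476 ± 82.6 against 280.5 ± 114 CPM and that in Nr1h4 was 158 ± 17.4 against 126 ± 15.9 CPM (n = 4 and 4, 2-sided exact permutation p = 0.0571 for each, and 0.381 adjusted over 20 such tests). At 50 mg/kg the Nr1i3 means were 649 and 467 CPM (exact permutation p = 0.229) and the Nr1h4 means were 179 and 165 CPM (exact permutation p = 0.486). Ppara at 50 mg/kg was the single one of these 20 cases in which the runs did not overlap. It had 116 ± 6.77 CPM in the run from 601 and 89.97 ± 5.04 CPM in the run from 619 (exact permutation p = 0.0286, the smallest that 4 against 4 mice can give, and 0.381 adjusted). The share of all genes without overlap was not computed. Over all doses the Ppara difference was -0.17 (SE 0.12, adjusted p = 0.805). For the other 7 members the log2 differences between runs lay from -0.14 (Esr1) to 0.096 (Hnf4a). The test of whether the effect of 50 against 5 mg/kg differed between the runs called 0 members and 0 of 13418 genes (0%), 0 genes in DESeq2 as well, with 0 members and 4.89% of genes (2.21% higher and 2.68% lower) at an unadjusted p under 0.05. Its SEs for the members had a median of 0.26.

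Clock genes differed between the same sets of mice. Of 18 clock genes tested, 2 were called higher in the run from 619, Npas2 at 3.46 (adjusted p = 0.00987) and Arntl at 1.30 (adjusted p = 0.049), both activators of the circadian clock. Per1, a repressor of it, had -1.01 (adjusted p = 0.0694). Unadjusted, 5 were higher and 11 lower at p under 0.05. The summed level of the list ran from 875 through 1252 to 1508 CPM in the run from 601 and from 563 through 878 to 1289 CPM in the run from 619, and its part in the Nr1i3 and Nr1h4 values was not tested.

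Nr1i3 and Nr1h4 also varied together from mouse to mouse, so the stretches before their start sites are shown. Each is the 250 bases before a RefSeq start (GRCm38.p6), 5′ to 3′ on the strand of the gene, with capitals for the E-box CACGTG, to which clock activators among other factors bind, and for the nuclear receptor half-site AGGTCA, read as TGACCT where it lies on the other strand. Nr1i3 is at chr1:171213720-171213969 on the plus strand and Nr1h4 at chr10:89506659-89506908 on the minus strand, at a start inside the span of the annotated gene.
Nr1i3: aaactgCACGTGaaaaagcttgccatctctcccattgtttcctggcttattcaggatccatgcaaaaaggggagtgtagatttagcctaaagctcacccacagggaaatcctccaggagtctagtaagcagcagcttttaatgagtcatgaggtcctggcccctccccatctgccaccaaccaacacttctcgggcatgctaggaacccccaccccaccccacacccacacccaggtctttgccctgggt
Nr1h4: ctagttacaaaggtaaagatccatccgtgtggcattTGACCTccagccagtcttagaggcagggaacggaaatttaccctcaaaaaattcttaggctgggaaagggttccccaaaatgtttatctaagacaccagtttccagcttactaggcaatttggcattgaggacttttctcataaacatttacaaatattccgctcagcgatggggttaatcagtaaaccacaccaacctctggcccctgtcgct
The E-box of Nr1i3 begins 244 bases before the start and the half-site of Nr1h4 begins 214 bases before it. RefSeq promoter windows, which reach 50 bases past the start, were at hand for 9 of the 10 members with 14 starts. In these, searched on both strands, CACGTG was in 1 window (7.15% of all 32851 promoters hold it), AGGTCA in 3 (16.3%), the AhR core site GCGTG in 3 (32.4%), and the D-box TTATGTAA (0.938%) and a repeat of the half-site with 1 base between (0.0396%) in 0. A match gives the letters in a window and does not show binding.

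Of the 45 pairs of members, 4 had a correlation across the 26 mice that passed an adjusted p of 0.05, and all 4 were positive. The share of pairs of other genes that would pass was not computed, so 4 of 45 has no background here. The permutations shuffled all 26 mice without regard to dose or run, so differences between doses and runs enter r and its p. Rxra and Nr1h3, partners in 1 receptor pair, had a Pearson r of 0.688 (permutation p = 0.00011, adjusted 0.00247) and a Spearman rho of 0.648 (permutation p = 0.00048, adjusted 0.0108). Without the 2 mice farthest from the median of Rxra r was 0.645, and inside the runs from 601 and 619 it was 0.455 and 0.877. No other member that pairs with Rxra passed with it. The r of Rxra was 0.393 with Ppara, 0.25 with Nr1i2, -0.23 with Nr1h4 and -0.299 with Nr1i3 (adjusted permutation p = 0.175, 0.413, 0.422 and 0.323). Nr1i3 and Nr1h4 had r of 0.686 (permutation p = 9e-05, adjusted 0.00247) and rho of 0.665 (permutation p = 0.00022, adjusted 0.0099), with 0.625 without the 2 farthest mice and 0.345 and 0.755 within the runs. Both pairs thus kept their sign in each run, with the larger value in the run from 619.

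Rxra and Hnf4a had r of 0.548 (permutation p = 0.004, adjusted 0.0488) and rho of 0.593 (permutation p = 0.00175, adjusted 0.0262), with 0.514 without the 2 farthest mice, but 0.153 and 0.841 inside the runs from 601 and 619. Ahr and Esr1 had r of 0.547 (permutation p = 0.00434, adjusted 0.0488), while rho was 0.405 (permutation p = 0.0409, adjusted 0.184) and r was 0.318 without the 2 mice farthest from the Ahr median. Inside the runs from 601 and 619 the r of Ahr and Esr1 was 0.619 and 0.399, so the call over all mice, though not the sign, rests on those 2 mice. They are 0.5 mg/kg replicates 1 and 2, the mice of high Saa1. Without the 2 farthest mice, 2 of 45 pairs passed, and the largest r there were the 0.645 and 0.625 of the first 2 pairs. The pair of Rxra and Hnf4a thus did not keep its call either. Within single runs, fewer pairs passed as well: 0 of 45 among the mice from 601 and 2 among those from 619. No negative pair passed, and the most negative was that of Ahr and Rxra (r = -0.498, permutation p = 0.00938, adjusted 0.074; rho = -0.382, permutation p = 0.0544, adjusted 0.215; r = -0.563 and -0.48 within the runs and -0.401 without the 2 farthest mice).

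**Figure D4:**
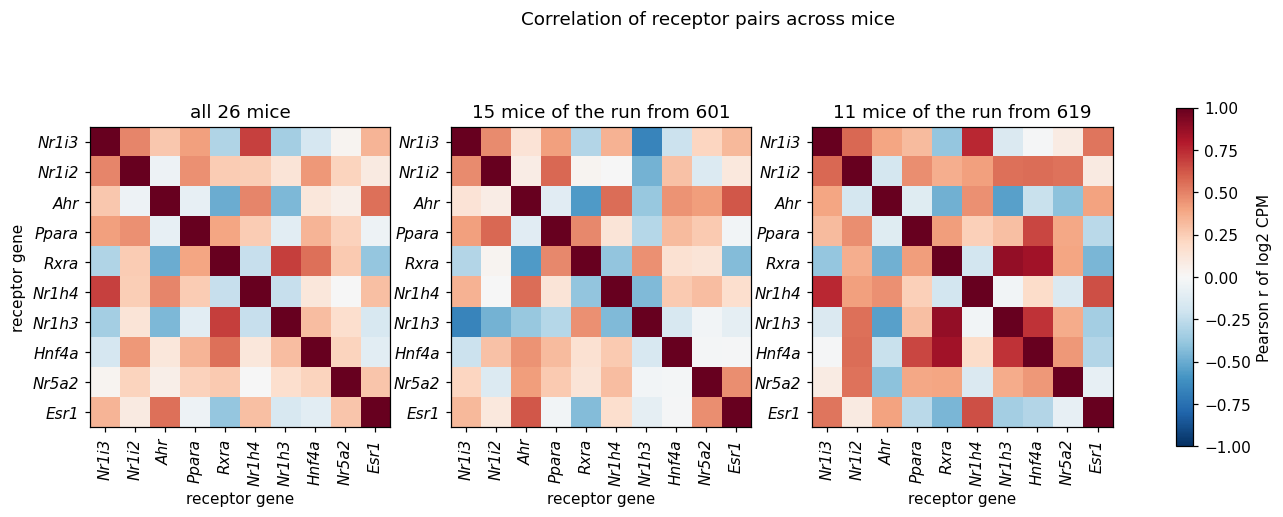
Pearson r of log2 CPM for each pair of the 10 receptors over all 26 mice, over the 15 mice of the run from 601 and over the 11 mice of the run from 619, on a colour scale from -1 to 1. Rxra with Nr1h3 (0.688) and Nr1i3 with Nr1h4 (0.686) are the darkest red cells off the diagonal of the first panel, and Rxra with Hnf4a goes from 0.153 to 0.841 between the other two.

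**Figure D5:**
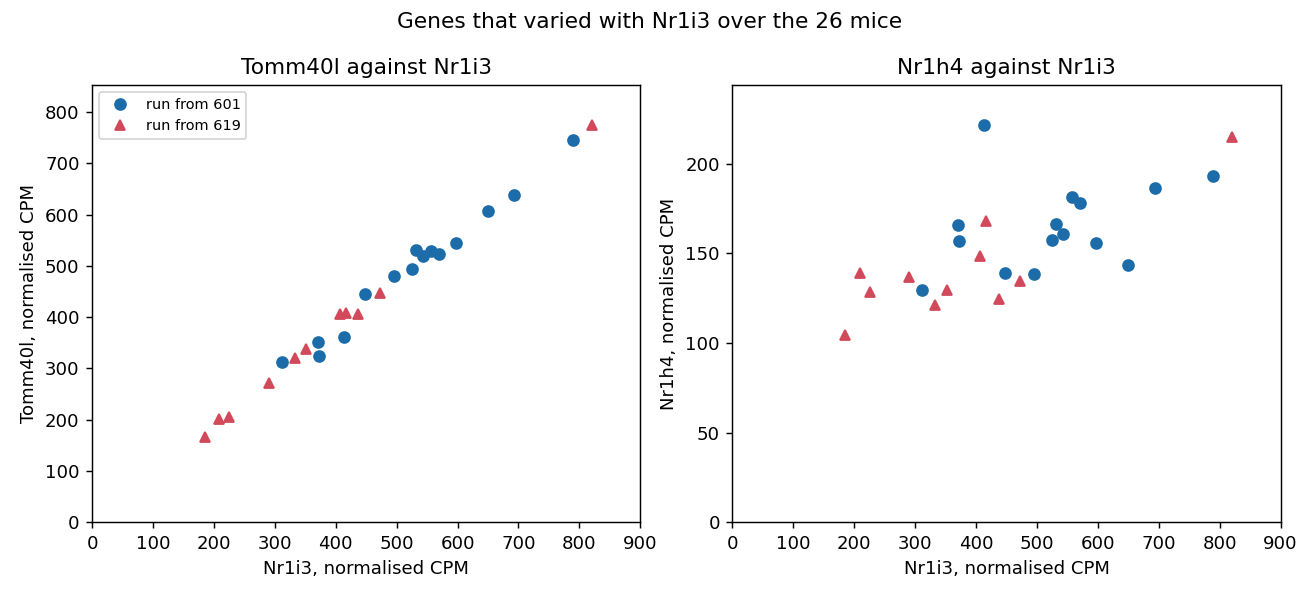
Normalised CPM of Tomm40l and of Nr1h4 against that of Nr1i3 in each mouse, with circles for the run from 601 and triangles for the run from 619. Tomm40l, whose exons overlap those of Nr1i3, lies close to 1 line (r = 0.995), and Nr1h4 is more scattered (r = 0.686).

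The genes most like each member in log2 CPM over the 26 mice were drawn from 14267 others, as a description, since the mice share their doses, runs and library quality. After Tomm40l, the closest to Nr1i3 was Pcgf3, a Polycomb group gene, at r = 0.911 (0.935 and 0.861 within the runs). For Rxra it was Eif4h, a factor of translation initiation, at 0.904, for Nr1h4 the kinase gene Riok2 at 0.864, and for Nr1h3 the RNA exonuclease gene Rexo2 at 0.86. For Ahr it was the mitochondrial transfer RNA mt-Te at 0.851, followed by Eif1a at 0.848 and the cholesterol transporter Abca1 at 0.83. For Ppara it was the mitochondrial carrier Slc25a47 at 0.837, for Nr1i2 the sterol transporter Abcg5 at 0.786, for Nr5a2 Rhod at 0.765 with the coagulation factor F5 at 0.754, and for Hnf4a Card6 at 0.746. Esr1 had the loosest match, Gm527 at 0.707, which was 0.841 and 0.11 inside the runs from 601 and 619.

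The genes around the receptors, in 12 lists of other nuclear receptors, chaperones and partners, cofactors and known targets (154 distinct genes tested), held 0 genes past an adjusted p of 0.05 in any of the 5 comparisons with a direction. Over all genes, 51.1% had a positive fold change at 50 mg/kg, and 2.54% were higher and 2.57% lower at an unadjusted p under 0.05. Of 28 other nuclear receptors at 50 mg/kg, 11 had positive and 17 negative fold changes, with 2 and 4 at an unadjusted p under 0.05. The smallest p were those of Ppard (-0.60, adjusted p = 0.709), of the thyroid hormone receptor Thra (-0.89, adjusted p = 0.769) and of Nr1d1, a clock repressor (-1.27, adjusted p = 0.868). Coactivators were negative in 9 of 12, with 2 at an unadjusted p under 0.05, Crebbp (-0.30) and Ppargc1b (-0.63). Corepressors were negative in 7 of 9 with none at that p, and among 8 chaperones and partners Fkbp5, a glucocorticoid target that acts with Hsp90, had the smallest p (0.73, adjusted p = 0.883). Arnt, the partner of Ahr, had -0.21 between the runs (adjusted p = 0.579).

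The target lists, some of whose genes are shared, were chosen with earlier results of these data known. Their counts are therefore set beside the shares of all genes as a description and not as a test. The values that follow are for 50 mg/kg, where all genes had a median of 0.0054 and 51.1% were positive. Targets of CAR were positive in 12 of 14 with a median log2 fold change of 0.43, and 5 were higher at an unadjusted p under 0.05 (2.54% of all genes). Other lists were mostly positive too: hepatocyte markers in 10 of 12 (median 0.21, 0 at that p) and acute phase genes in 11 of 13 (median 0.56, 1 higher), and their part in the target lists was not tested. Cyp2b10, the P450 that marks CAR activity in the mouse, had 2.09 (adjusted p = 0.721) and Cyp2c54 had 0.70 (adjusted p = 0.802). The level of Cyp2b10 was low, with 0.70 to 1.51 CPM in the control mice and 1.11 to 12.2 CPM at 50 mg/kg (mean 4.44, SD 3.65). It did not rise in the order of dose, with 2.74 to 5.38 CPM at 0.5 mg/kg (mean 4.46, SD 1.02). At 5 mg/kg Cyp2b10 had 0.61 to 8.63 CPM (mean 3.64, SD 3.26). PXR targets were positive in 8 of 12 (median 0.21) with 2 higher at that p, the transporter Slco1a4 (1.01) and Cyp3a13 (0.55). Cyp3a11, the P450 that marks PXR activity in the mouse, had means of 4804 ± 1740 CPM in the control mice, 3487 ± 1262 CPM in the 5 mg/kg group and 4198 ± 909 CPM in the 50 mg/kg group (SD, n = 5, 8 and 8). Its log2 fold change for 5 mg/kg was -0.45 (adjusted p = 0.78). AhR targets were positive in 8 of 8 (median 0.12) with 0 at that p, and Cyp1a1, the classical AhR target, had 0.39 (adjusted p = 0.997). Its level was also low, with means of 1.14 ± 0.82 CPM in the control mice and 1.38 ± 0.57 CPM at 50 mg/kg (SD). In the 0.5 mg/kg group the CAR list was positive in 9 of 14 (median 0.40, 5 higher at that p, against 3.79% of all genes). In the 5 mg/kg group it was positive in 11 of 14 (median 0.26, 1 higher and 1 lower, against 2.73% and 3.45% of all genes). Of all genes, 50.8% were positive at 0.5 mg/kg and 51.9% at 5 mg/kg. Acute phase genes at 0.5 mg/kg were positive in 13 of 13 (median 1.18, 9 higher at that p) and hepatocyte markers in 10 of 12 (median 0.31, 2 higher).

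FXR targets were positive in 6 of 10 at 50 mg/kg (median 0.20), a count that ignores whether FXR raises or lowers a gene. Of the 10, 2 were higher at an unadjusted p under 0.05, the bile acid transporters Slc51a (0.43, adjusted p = 0.868) and Slc10a1 (0.36, adjusted p = 0.924). Nr0b2 (Shp) had means of 26.7 ± 8.6 CPM in the control mice and 23.2 ± 8.9 CPM at 50 mg/kg (SD, n = 5 and 8). LRH-1 targets were positive in 4 of 7 (median 0.10), among them Cyp7a1, which catalyses the slowest step from cholesterol to bile acids, at 1.75 (adjusted p = 0.614). PPAR-alpha targets were split, 12 of 23 positive with a median of 0.024, as were LXR targets (7 of 13, median 0.071) and HNF4-alpha targets (9 of 16, median 0.05). The PPAR-alpha and LXR lists held 0 genes at an unadjusted p under 0.05. Between the runs, where 54% of all genes were positive, the CAR list had 6 positive and 8 negative (median -0.016) and the PXR list 5 and 7 (median -0.025), against a median of 0.015 over all genes. Each held 2 genes lower in the run from 619 at an unadjusted p under 0.05 (3.83% of all genes): Por, the electron donor of P450 enzymes, which is in both lists (-0.53, adjusted p = 0.302), Cyp2a5 (-0.67, adjusted p = 0.419) and Alas1 of heme synthesis (-0.98, adjusted p = 0.341). PPAR-alpha targets were positive in 17 of 23 (median 0.10) with 4 higher at that p (4.16% of all genes), and Pdk4, which restrains glucose oxidation, had 1.52 (adjusted p = 0.492).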

How the data were processed

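The deposited table holds counts of reads for each gene, not normalised. The submitters' processing notes name featureCounts, bcl2fastq and the mm10 build. The aligner, annotation, strand setting and versions are not given in the sources used here. No 2 of the 26 libraries were identical. Genes were filtered with filterByExpr by dose, scaled by TMM and tested with edgeR 4.0.16 in R 4.3.3 (quasi-likelihood test, robust, terms for dose and run, all 26 mice, Benjamini-Hochberg adjustment over all genes, threshold 0.05). The run by dose interaction used the 16 mice at 5 and 50 mg/kg. SE is the log2 fold change over the square root of F. Pair tests drew 100000 permutations over all 26 mice, without regard to dose or run. The code was tested on simulated data. Positions are from GENCODE M21 (mm10) and promoters from RefSeq. The members and gene lists were chosen with earlier results of these data known. All members were named, with up to 4 genes per list of smallest p and up to 3 most alike genes per member. Alternatives were DESeq2 1.42.0, RLE scaling, other filters, other terms, single runs and leaving out mice. Some list genes are not reported here.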

Additional observations from a re-analysis of the deposited data

Results flagged for a closer look

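Within the 4 dose groups, the highest and lowest mouse was compared with the rest for each of the 10 receptors (40 groups of values), a rule that chance meets in about 1 of 20 groups. One value stood far from its group. Nr1h4 was at 222 CPM in 0.5 mg/kg replicate 2, a gap to the next mouse (155 CPM) of 0.717 of the whole range of that group, where the critical value is 0.71. This mouse also had the highest Ahr (89.3 CPM) of all 26 and the highest Saa1 (3225 CPM), and the part of the acute phase genes in its Nr1h4 value was not tested.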

How the results depend on the processing

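No member passed an adjusted p of 0.05 under any alternative tried, though DESeq2 gave no adjusted p for Esr1 at 0.5 mg/kg. Of the 1630 member values under alternatives, 1528 kept their direction and 102 turned, and the smallest adjusted p was 0.0535, for Nr1i3 between the runs without 50 mg/kg replicate 7. The counts of all genes called moved more. DESeq2 called 3, 4, 7, 11 and 108 genes at 50, 5 and 0.5 mg/kg, for any dose difference and between the runs, where edgeR called 1, 0, 0, 1 and 13. The run from 601 alone gave 4 genes for 50 mg/kg and 33 for 0.5 mg/kg, the run from 619 alone 0 for 50 mg/kg. Without a run term 0 genes were called for 50 mg/kg and 0 for any dose difference, which was also 0 with no filter. Between the runs 6 genes passed among those with a mean of at least 5 CPM and 3 without a dose term. Of the 45 pairs, 4 passed over all mice, 2 without the 2 farthest mice, and 0 and 2 inside the runs from 601 and 619. Leaving out each mouse in turn gave 0 to 1 genes for 50 mg/kg, 0 to 3 for 5 mg/kg (3 without control replicate 4), 0 to 0 for 0.5 mg/kg, 0 to 4 for any dose difference, 0 to 2 for the interaction, and 2 (without 5 mg/kg replicate 4) to 60 (without 50 mg/kg replicate 7) between the runs. Causes were not tested.

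Among genes with a mean of at least 5 CPM, the sign turned for 50 against 0 mg/kg (Ppara -0.0052) and between the runs (Rxra -0.0093). Without a run term, the sign turned for 50 against 0 mg/kg (Ppara -0.039) and for 5 against 0 mg/kg (Nr1h4 -0.030). Without a dose term, the sign turned between the runs (Nr1i2 -0.0049). In the run from 601 alone, the sign turned for 50 against 0 mg/kg (Rxra -0.034, Nr1h3 -0.034), for 5 against 0 mg/kg (Nr1i3 0.022, Rxra -0.012) and for 0.5 against 0 mg/kg (Nr1h3 -0.0063). In the run from 619 alone, with 1 control mouse, the sign turned for 50 against 0 mg/kg (Nr1i2 0.11, Ahr -0.073, Hnf4a 0.42), for 5 against 0 mg/kg (Ppara 0.29, Hnf4a 0.39, Esr1 0.082) and for 0.5 against 0 mg/kg (Nr1i2 0.44, Ahr -0.83, Ppara 0.56, Rxra 0.62, Hnf4a 0.49, Esr1 -0.26). With the mice given 5 and 50 mg/kg alone, the sign turned between the runs (Nr1i2 -0.018, Ahr 0.13, Rxra -0.026, Esr1 0.13). Without the 2 mice of high Saa1, the sign turned for 0.5 against 0 mg/kg (Nr1i2 0.015, Ahr -0.57, Rxra 0.093, Nr1h4 -0.019, Esr1 -0.21) and between the runs (Nr1i2 -0.0032, Ahr 0.14, Rxra -0.054, Nr1h3 -0.023, Esr1 0.025). Without replicates 6 and 8 of 5 mg/kg, the sign turned for 50 against 0 mg/kg (Ppara -0.00079), for 5 against 0 mg/kg (Nr1i3 0.0012) and in the interaction of run and dose (Ahr -0.018, Rxra -0.13).

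Leaving out 1 mouse at a time for 0.5 against 0 mg/kg, values that turned spanned Ahr -0.049 to 0.44, Hnf4a -0.21 to 0.013, Nr1i2 -0.18 to 0.0039, Rxra -0.20 to 0.042. With each mouse left out in turn in the interaction of run and dose, values that turned spanned Ahr -0.086 to 0.18, Nr1i2 -0.22 to 0.077, Nr1i3 -0.15 to 0.54, Rxra -0.088 to 0.21. When single mice were left out between the runs, values that turned spanned Ahr -0.14 to 0.060, Nr1h3 -0.017 to 0.060, Nr1i2 -0.012 to 0.10, Nr5a2 -0.0043 to 0.076, Rxra -0.041 to 0.081. Over the fits that each lack 1 mouse for 5 against 0 mg/kg, values that turned spanned Esr1 -0.18 to 0.087, Nr1i3 -0.20 to 0.052, Ppara -0.24 to 0.033, Rxra -0.071 to 0.15. Dropping single mice for 50 against 0 mg/kg, values that turned spanned Hnf4a -0.20 to 0.00097, Nr1h3 -0.0069 to 0.14, Ppara -0.11 to 0.17, Rxra -0.075 to 0.16. No paired analysis was possible because the labels give mouse numbers but no replicate number shared between groups. Esr1 had the lowest counts of the members, 80 to 393 per library, and also the largest biological coefficient of variation, 35%.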
